A study of Rattus norvegicus with 10 samples.

Results

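The rows described here are places on the rat genome where an unnamed transcript unit was listed with exactly the same bounds as a named gene. They were chosen by a rule: a row of the authors' expression table that carried no gene name, whose locus (chromosome, start and end) was identical to that of at least 1 named row, and whose mean over the vehicle and BDE-47 columns was at least 1 FPKM (fragments per kilobase of transcript, a level scaled for length and library depth). Of 94827 rows, 74189 carried no name, 8404 of these shared their bounds with a named row, and 2810 rows in 1278 loci passed the level rule. Values of both columns chose the members, so their levels are a description, and the lowest member had a mean of 1 FPKM while the closest row outside had 0.999995.

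The study fed pregnant Wistar rats a corn oil vehicle or the same oil with BDE-47, a polybrominated diphenyl ether flame retardant, with 7 dams in each group. The daily dose was 0.2 mg per kg of body weight, begun on pregnancy day 8 and ended on day 21 after birth. Testes of male offspring were taken at postnatal day 120, long after the exposure had ended, and the labels list 5 libraries of poly(A) RNA for each group. Nothing in the labels ties an animal to a litter. The table holds 1 value per group and row, so no value per animal, no SD and no p-value can be given, and every difference below compares 2 group values with no replicate check. A value of 0 in this table may be a failed estimate. The tissue label was checked against 6 spermatid or spermatocyte genes, which lay between 537 and 43238 FPKM in both columns. Of 6 liver genes, 5 lay between 0 and 6.45 FPKM, and Serpina1 was at 1479 FPKM in vehicle and 662 FPKM in BDE-47.

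A transcript assembler groups reads into units and gives every unit of an overlapping bundle the outer bounds of the bundle. Units without a name can then be a divergent transcript from the promoter of a gene, an antisense transcript inside it, a piece of an intron or an unlinked end, or a neighbouring gene that the annotation lacked. Testis is known for wide transcription outside annotated genes, above all in meiotic and post-meiotic germ cells. The bounds do not show where inside a locus the unnamed unit lies. The row numbers do, however, carry an order: within each chromosome they climb with position and then start again from its beginning. Against the strands of the later RefSeq assembly GRCr8, the first climb (run 1) matched plus and the second matched minus for 90.9% of 8635 genes, and 97.2% of 8430 genes had the orientation of most of their 10 nearest genes. A member is called "same run" here if its number falls in the run of its named partner, the most abundant named row of the locus, and "other run" if it does not. Of the members, 1357 were in the same run and 1453 in the other run, 2 of which stood in a short last run of unnamed rows. Coordinates of loci are on rn5. Run is read from the numbering and is not a strand stated by the authors.

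The promoters of 4 partners are shown because a gene that the deposited table did not name starts beside each of them, on the opposite strand in GRCr8, and because their members, each alone in its locus and in the other run, were the most abundant of that kind. Cdipt encodes phosphatidylinositol synthase and faces Cdiptos, with gene starts 81 bases apart. Tada2b encodes a subunit of histone acetyltransferase complexes and faces Ccdc96, a coiled-coil gene, at 224 bases. Erc1, a scaffold gene of the cell cortex, overlaps the start of LOC120102377, and Cdc20, the activator of the anaphase-promoting complex, faces the lncRNA LOC103692460 at 135 bases. The sequences are the 250 bases before the transcript start that the RefSeq promoter table (GRCr8) uses, at chr1:191013556-191013805 on the plus strand, chr14:78503905-78504154 on the plus strand, chr4:154727988-154728237 on the minus strand and chr5:137255800-137256049 on the minus strand. Capitals mark matches on either strand to GGGCGG, the GC box, and to TGACG, the half-site of the cAMP response element that the germ cell activator CREM binds.
Cdipt: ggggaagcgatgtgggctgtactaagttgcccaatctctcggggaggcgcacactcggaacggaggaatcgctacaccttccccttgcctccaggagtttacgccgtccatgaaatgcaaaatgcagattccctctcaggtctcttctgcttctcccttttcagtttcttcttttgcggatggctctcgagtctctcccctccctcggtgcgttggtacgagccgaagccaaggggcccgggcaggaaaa
Tada2b: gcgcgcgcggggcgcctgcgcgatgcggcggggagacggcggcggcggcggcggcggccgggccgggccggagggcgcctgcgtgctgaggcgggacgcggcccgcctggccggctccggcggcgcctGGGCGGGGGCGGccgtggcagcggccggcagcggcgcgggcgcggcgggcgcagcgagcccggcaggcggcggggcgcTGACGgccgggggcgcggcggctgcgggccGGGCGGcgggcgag
Erc1: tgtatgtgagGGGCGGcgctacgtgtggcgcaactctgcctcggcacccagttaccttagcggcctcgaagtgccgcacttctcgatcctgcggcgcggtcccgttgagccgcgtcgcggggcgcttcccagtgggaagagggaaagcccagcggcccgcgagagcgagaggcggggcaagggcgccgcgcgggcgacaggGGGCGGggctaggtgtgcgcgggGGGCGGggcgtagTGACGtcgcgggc
Cdc20: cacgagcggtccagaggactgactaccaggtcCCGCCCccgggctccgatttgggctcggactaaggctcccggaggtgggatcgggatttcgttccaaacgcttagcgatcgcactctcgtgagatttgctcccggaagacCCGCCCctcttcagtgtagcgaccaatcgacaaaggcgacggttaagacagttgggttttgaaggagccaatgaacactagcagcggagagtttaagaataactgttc
GGGCGG was found in 3 of these 4 windows and TGACG in 2, and of 33469 RefSeq rat promoters of this length 30.5% held the first and 18.2% the second. The Cdipt window held neither. G and C made up 90.4% of the Tada2b window and 73.2% of the Erc1 window, beside a median of 51.2% over all promoters.

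The member at Cdipt, XLOC_009206 at rn5 chr1:205385290-205393925, was listed at 290 FPKM in vehicle and 147 FPKM in BDE-47, while Cdipt itself was at 4.99 and 10.6 FPKM. Paired values here and below are vehicle first and BDE-47 second. The unnamed row stood far above its partner in both columns. It had the smaller value in BDE-47 and Cdipt the larger, with differences of -0.98 and 0.96 on the log2(FPKM + 1) scale, which are under 2-fold; the added 1 FPKM lessens the difference of Cdipt, the lower row of the pair. At Tada2b the member was at 56.9 FPKM in vehicle and 31.1 FPKM in BDE-47, and at Cdc20 it was at 32.2 and 18.1 FPKM. The member at Erc1 was close to equal in both, with 26.7 and 24.9 FPKM. All 4 members thus had a smaller value in BDE-47, and none reached 2-fold on the log2(FPKM + 1) scale. They were picked for their level, and the 114 members with a mean of 20 FPKM or more had a median difference of -0.17. Whether any of these rows is the facing gene was not tested.

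Neighbours that the table did not name were counted for loci with 1 named row. In GRCr8, 487 of 668 matched loci with members (72.9%) had such a gene within 10 kb of the partner, against 2890 of 5293 loci with no unnamed row (54.6%). For lncRNA genes the shares were 40.9% and 27.1%, and for protein-coding genes 30.5% and 20.1%. A head-to-head start within 1 kb was found at 60 of 541 loci with members (11.1%) and at 257 of 4134 without (6.22%). Loci with members were also longer on rn5, with a median of 42.3 kb against 22.4 kb. Among the facing genes were Ccdc191 beside Qtrt2 (listed as Qtrtd1), a tRNA modification gene whose member was at 39.9 and 42.2 FPKM, and Setd3 beside Ccnk, a cyclin gene whose member was at 13.8 and 17.9 FPKM.

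Differences are log2(FPKM + 1) of BDE-47 minus that of vehicle, and a row is called higher or lower where this difference reaches 2-fold, by a rule of size with no test behind it. Of 2810 members, 435 were higher in BDE-47 (15.5%) and 42 were lower (1.49%), with a median difference of 0.33. Among all 32602 rows that met the same level rule, 22.5% were higher and 2.82% were lower, with a median of 0.32. Named rows were higher in 27.6% and lower in 3.55%, and the other unnamed rows in 19.7% and 2.47%. The members thus shared the upward direction of the whole table, with a smaller share past 2-fold on this scale than either set beside them. The sets differ in level, with median means of 2.07 FPKM for members, 10.0 for named rows and 2.37 for other unnamed rows. The added 1 FPKM lessens the differences of low rows most. By the deposited ratio 30.9% of members were higher, and the shares of the other sets were not computed at that setting. The direction of the median depends on the scaling: the median log2 ratio over all rows above 0 in both columns was 0.79, and the members' median turned to -0.19 when that shift was removed. Of the members past 2-fold, 91.2% were higher with 1 FPKM added to the unscaled columns, beside 88.9% of all rows past 2-fold. The members' share was 88.8% by the deposited ratio, 33.3% with that shift removed and 54.3% after quantile normalization.

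**Figure D1:**
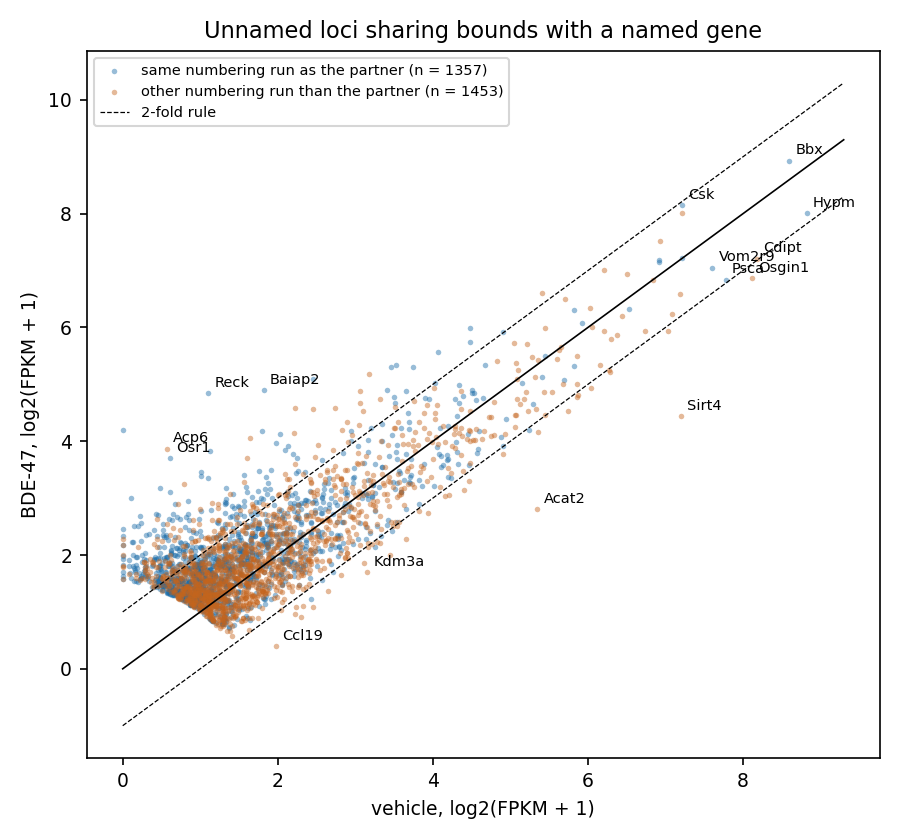
Each point is 1 of 2810 unnamed rows, with its level in the vehicle column (x) and the BDE-47 column (y) as log2(FPKM + 1), coloured by numbering run. The solid line marks equality and the dashed lines the 2-fold rule; 435 points lie past the upper dashed line and 42 past the lower, and symbols name the partner.

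The level rule bears on these counts, since a row low in 1 column could enter through the other. In vehicle, 727 members were under 1 FPKM, and 278 of these were higher. In BDE-47, 104 members were under 1 FPKM, of which 3 were lower. Of the 1979 members at 1 FPKM or more in both columns, 157 were higher (7.93%) and 39 were lower (1.97%), beside 16.5% and 3.23% of all 25544 such rows. Direction also differed along the range of levels. Of the 1340 members with a mean of 1 to 2 FPKM, 201 were higher and 1 was lower; of the 114 members at 20 FPKM or more, 10 were higher (8.77%) and 13 were lower (11.4%), with a median of -0.17. Over all 5750 rows at 20 FPKM or more, 18.5% were higher and 8.23% lower, with a median of 0.07.

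Members in the run of their partner were more often higher, and less often lower, than members in the other run. In the run of their partner, 274 of 1357 members were higher (20.2%) and 6 were lower (0.442%), with a median difference of 0.47. In the other run, 161 of 1453 were higher (11.1%) and 36 were lower (2.48%), with a median of 0.17. Of the 42 members that were lower, 36 were in the other run. The contrast was larger in loci whose named rows all fell in 1 run: 25.6% of 614 same-run members and 9.40% of 777 other-run members were higher, with medians of 0.60 and 0.07. The level rule bears on this contrast. With both columns at 1 FPKM or more, 10.2% of 859 same-run members and 6.16% of 1120 other-run members were higher. At that setting 0.698% and 2.95% were lower, and the medians were 0.28 and 0.07. Without a level filter, 7.23% of 4758 same-run and 5.43% of 3646 other-run rows were higher, and the medians differed by 0.083. With the shift of the whole table removed, 8.62% of same-run and 3.92% of other-run members were higher and 8.40% and 16.1% were lower, and both medians turned negative (-0.036 and -0.35). Members of a locus share its reads and neighbourhood, and the spread of these shares between animals is unknown.

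**Figure D2:**
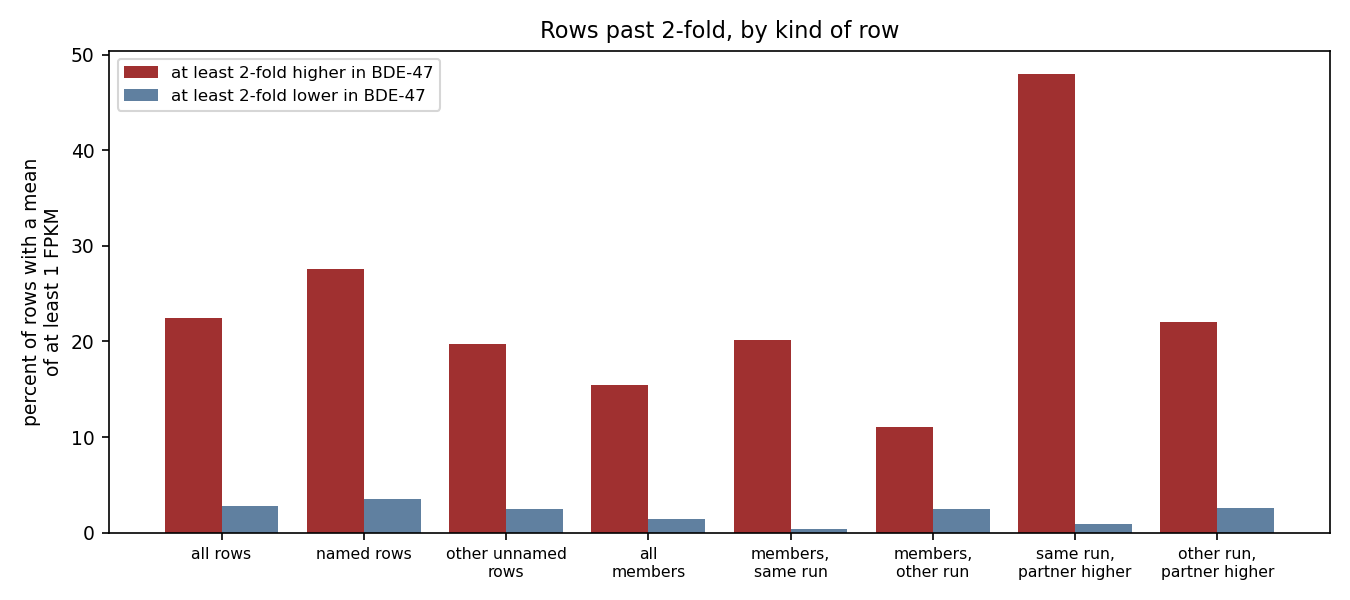
Bars give the percent of rows at least 2-fold higher (red) or lower (blue) in the BDE-47 column, for rows with a mean of at least 1 FPKM. Members in the run of their partner reached 20.2% higher and members in the other run 11.1%. Where the partner was itself higher these were 48.0% and 22.0%. Of the 435 higher members, 278 were under 1 FPKM in vehicle and entered through BDE-47.

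Each member was set beside its named partner. Where the partner was higher, 149 of 414 members were higher too (36.0%); where the partner was within 2-fold, 278 of 2263 were higher (12.3%); where it was lower, 8 of 133 were higher and 7 were lower. In the same run, 107 of 223 members with a higher partner were higher (48.0%), and in the other run 42 of 191 were (22.0%). In loci whose named rows all fell in 1 run, these shares were 56.8% of 132 and 19.6% of 107. The level rule bears on all these shares, since 278 of the 435 higher members were under 1 FPKM in vehicle and entered through BDE-47. Pair shares were not computed for members at 1 FPKM or more in both columns. Spearman's rho between the differences of member and partner was 0.32 over 1357 same-run pairs and 0.20 over 1453 other-run pairs; the points share libraries and columns, and many share a locus, so this is a description only. Opposite directions past 2-fold were listed for 15 pairs, and 7 pairs were both lower. Only 42 members were lower and only 133 had a lower partner, so both counts are limited by how few rows were lower. The number of opposite pairs is therefore no measure of agreement. Counted once per locus, the 1278 partners were higher in 16.3% and lower in 5.01%.

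**Figure D3:**
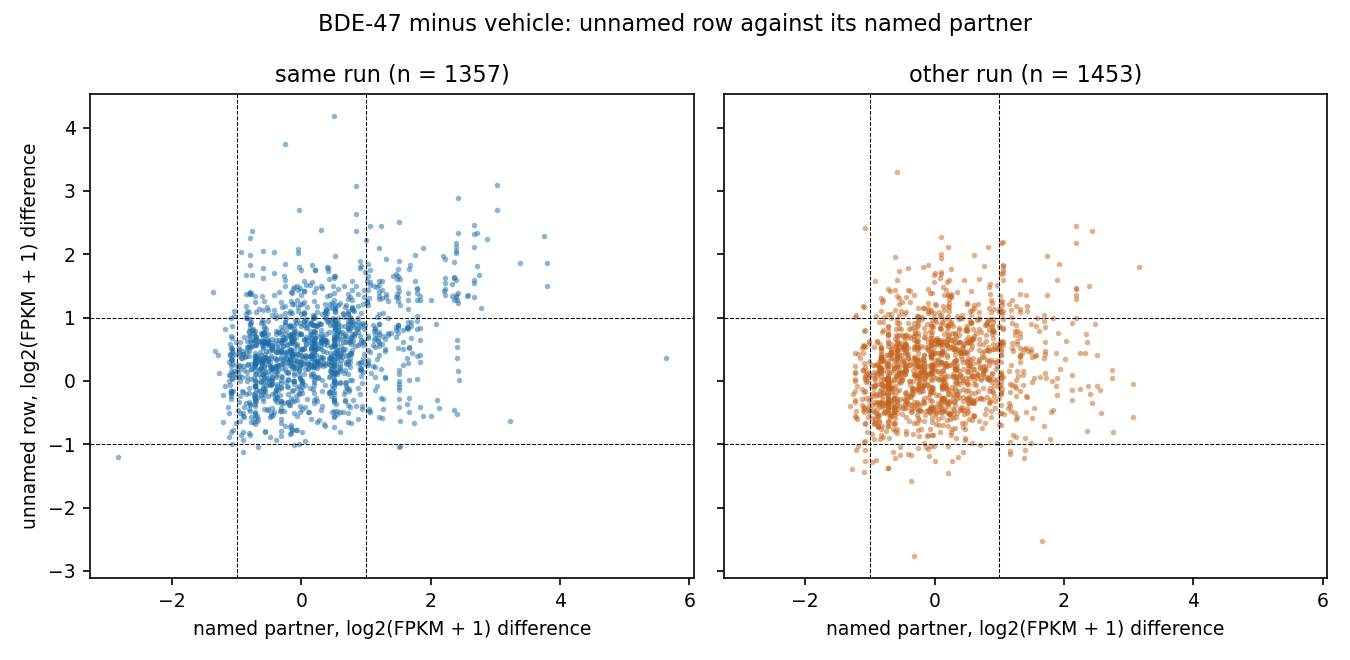
Each point is a pair, with the log2(FPKM + 1) difference of the named partner on the x axis and that of the unnamed row on the y axis, for 1357 same-run pairs (left) and 1453 other-run pairs (right). Dashed lines mark 2-fold; the upper right field holds 107 pairs on the left and 42 on the right.

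Most members were less abundant than their partner, which was chosen as the most abundant named row of the locus. The partner's mean was a median of 10.5-fold above the member's, and 174 members (6.19%) exceeded their partner: 51 in the same run (3.76%) and 123 in the other run (8.47%). In loci with 1 named row, where no choice was made, 98 of 1315 members exceeded their partner. Of all members, 20 exceeded it by more than 10 times. The largest excess was at Cbln1, which encodes a secreted synaptic organizer, where an other-run member was at 57.7 FPKM in vehicle and 27.1 FPKM in BDE-47 while Cbln1 was at 0.779 and 0.493 FPKM. At Prss53, a serine protease gene, the member was at 70.0 and 39.7 FPKM and the gene at 0.674 and 0.993 FPKM. At Ache, the acetylcholinesterase gene, the member was at 65.3 and 63.1 FPKM and the gene at 0.547 and 2.48 FPKM. At each of these loci the unnamed row given here thus stood above the named row in both columns. So did the second member at Prss53, at 0.841 and 1.89 FPKM, and every other member at Cbln1. The lowest values of the Cbln1 members were 0.953 FPKM in vehicle and 1.31 FPKM in BDE-47. The Cbln1 locus held 13 members, which summed to 119 and 96.5 FPKM.

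The 8 most abundant members lay above 100 FPKM in both columns, and only the one in the Vom2r9 locus did not exceed its partner's mean. The highest, XLOC_017082 in a 619 kb locus at chr11:55784012-56403138, was at 385 FPKM in vehicle and 488 FPKM in BDE-47, and its same-run partner Bbx, an HMG-box transcription factor gene, was at 68.6 and 58.1 FPKM. The member beside Hypm, at chrX:14687684-14891769, was at 452 and 258 FPKM and its partner at 320 and 150 FPKM. The member beside Csk, the kinase that restrains Src, was at 147 and 284 FPKM and Csk at 2.50 and 11.1 FPKM. Bbx and its member differed little between the columns, both rows of the Hypm pair had smaller values in BDE-47, and both rows of the Csk pair had larger ones.

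The member beside Osgin1, an oxidative stress response gene, was at 276 FPKM in vehicle and 115 FPKM in BDE-47, with Osgin1 at 75.6 and 39.9 FPKM. The member beside Psca, a gene for a GPI-anchored surface protein, was at 218 and 114 FPKM and Psca at 86.2 and 45.9 FPKM. A locus whose symbol field held a date in place of a symbol, at chr12:32537380-32566349, had a member at 148 and 258 FPKM and a partner at 10.6 and 34.5 FPKM. Of these 8 members, only that of Osgin1 passed 2-fold, at a log2 difference of -1.25. The 688 kb Vom2r9 locus held 41 members and 14 named rows, all listed under Vom2r9, a vomeronasal receptor gene. Its most abundant member was at 194 and 132 FPKM and the partner at 189 and 269 FPKM. Another Vom2r9 row in the same run was at 260 and 126 FPKM, so the named rows did not share 1 direction. Near-identical copies may share reads there, so single rows of this locus are uncertain.

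**Figure D4:**
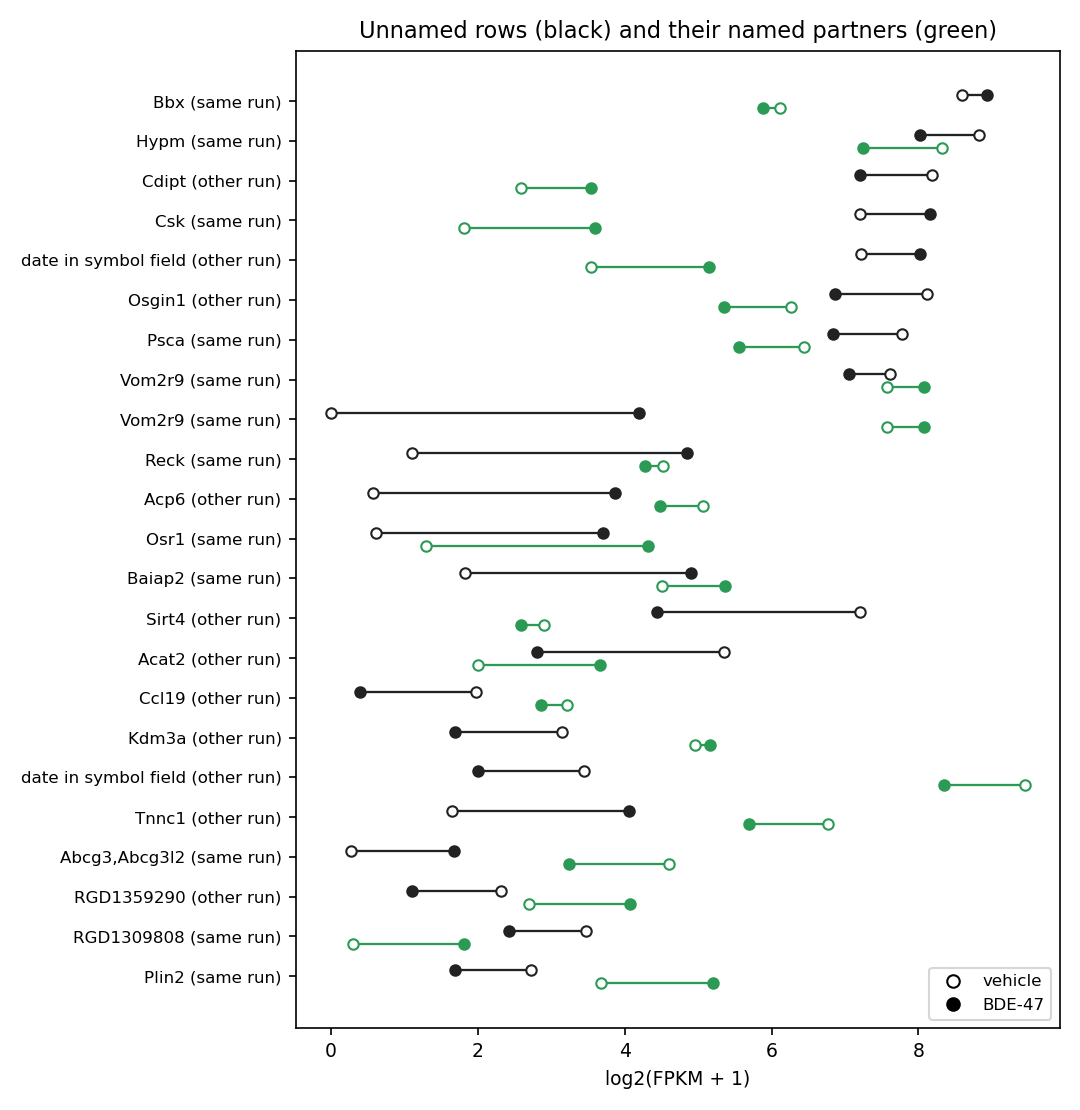
Levels as log2(FPKM + 1) in vehicle (open) and BDE-47 (filled) for named members (black) and the partner in the same locus (green), with the numbering run in brackets. The member at Sirt4 lay at 146 and 20.7 FPKM beside a partner at 6.45 and 4.99 FPKM, and that at Reck lay at 1.15 and 27.9 FPKM beside a partner at 22.0 and 18.4 FPKM.

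Of the 5 largest differences, 4 were in members whose partner stayed within 2-fold. In the Vom2r9 locus, 1 member was listed at 0 in vehicle and at 17.3 FPKM in BDE-47. At Reck, which encodes a membrane inhibitor of matrix metalloproteinases, the member was at 1.15 and 27.9 FPKM and the partner at 22.0 and 18.4 FPKM. At Acp6, a lysophosphatidic acid phosphatase gene, the member was at 0.483 and 13.6 FPKM and the partner at 32.7 and 21.4 FPKM. The members of Vom2r9, Reck and Acp6 were thus higher in BDE-47 (4.19, 3.75 and 3.30 on the log2 scale) beside partners within 2-fold. At Osr1, a zinc-finger transcription factor gene, both rows moved: the member was at 0.529 and 12.0 FPKM and Osr1 at 1.46 and 19.03 FPKM. At Baiap2, a gene for an adaptor of the actin cytoskeleton, the member with the largest difference was at 2.53 and 28.8 FPKM and Baiap2 at 21.9 and 40.2 FPKM.

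In the other direction, the member at Sirt4, a mitochondrial sirtuin gene, was at 146 FPKM in vehicle and 20.7 FPKM in BDE-47, a log2 difference of -2.76, while Sirt4 was at 6.45 and 4.99 FPKM. At Acat2, which encodes a cytosolic acetyl-CoA acetyltransferase, the member was at 39.7 and 6.02 FPKM and the partner at 3.01 and 11.7 FPKM. The Acat2 pair crossed, so that the unnamed row led in vehicle and the named row led in BDE-47. Lower values were also listed for the members of Ccl19, a chemokine gene, at 2.95 and 0.319 FPKM, and of Kdm3a, a histone demethylase gene, at 7.89 and 2.23 FPKM. A second locus with a date in the symbol field, at chr10:93349699-93441232, had a member at 9.92 and 3.01 FPKM beside a partner at 699 and 326 FPKM. All 5 members with the lowest difference were in the other run.

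Of the 15 pairs in opposite directions, 8 had a higher member and 7 a lower one. After Acat2 the widest gap was at Tnnc1, the gene for troponin C of slow muscle and heart, where an other-run member was at 2.13 and 15.7 FPKM and the named row at 108 and 50.6 FPKM. A second Tnnc1 row, in the member's own run, was at 17.0 and 48.5 FPKM, so the member moved with that row. At Plin2, which encodes a coat protein of lipid droplets, the member was at 5.58 and 2.23 FPKM and the partner at 11.8 and 36.0 FPKM. The member beside RGD1359290 was at 4.00 and 1.14 FPKM under a partner at 5.46 and 15.8 FPKM, and that beside RGD1309808 was at 10.1 and 4.38 FPKM with a partner at 0.232 and 2.51 FPKM. Both unnamed rows were lower where the partner was higher. A second RGD1359290 row, in the run of that member, was at 4.03 and 2.45 FPKM, so the RGD1359290 member had the direction of that row. At the merged Abcg3,Abcg3l2 row, a family of transporter copies that may share reads, the member was at 0.203 and 2.19 FPKM and the partner at 23.3 and 8.46 FPKM. The other 13 named rows of that locus all had a difference above 0, so there the partner, and not the member, stood apart from the rest.

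Members could be several to a locus: 765 loci held 1 member and 513 held several, and 23 loci with 10 or more members held 405 of them. The Map3k7 locus, 391 kb at chr9:113463447-113854253 around the gene for the kinase TAK1, held 86 members, of which 4 were higher and 2 lower, with a median of -0.05. Of 283 loci with at least 3 members, 9 had every member higher, none had every member lower and 5 had both. At Il10rb, a cytokine receptor subunit gene, 7 members lay between 0 and 0.511 FPKM in vehicle and between 2.04 and 5.24 FPKM in BDE-47, and the gene was at 2.38 and 16.7 FPKM. At Sp100, a nuclear body gene induced by interferon, 5 members lay between 0.0915 and 0.170 FPKM in vehicle and between 2.27 and 5.46 FPKM in BDE-47, and the gene was at 0.889 and 11.0 FPKM. All members of these loci were under 1 FPKM in vehicle and met the level rule through BDE-47, which sets their direction; over the 9 loci this holds for 29 of 37 members. At Anapc15, a subunit gene of the anaphase-promoting complex, 5 members lay at or under 1.01 FPKM in vehicle and at or over 2.93 FPKM in BDE-47 while the partner was at 73.0 and 70.5 FPKM. At Ppp2r2d, a regulatory subunit gene of protein phosphatase 2A, the 3 members summed to 11.6 and 51.4 FPKM beside a partner at 74.0 and 79.3 FPKM.

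**Figure D5:**
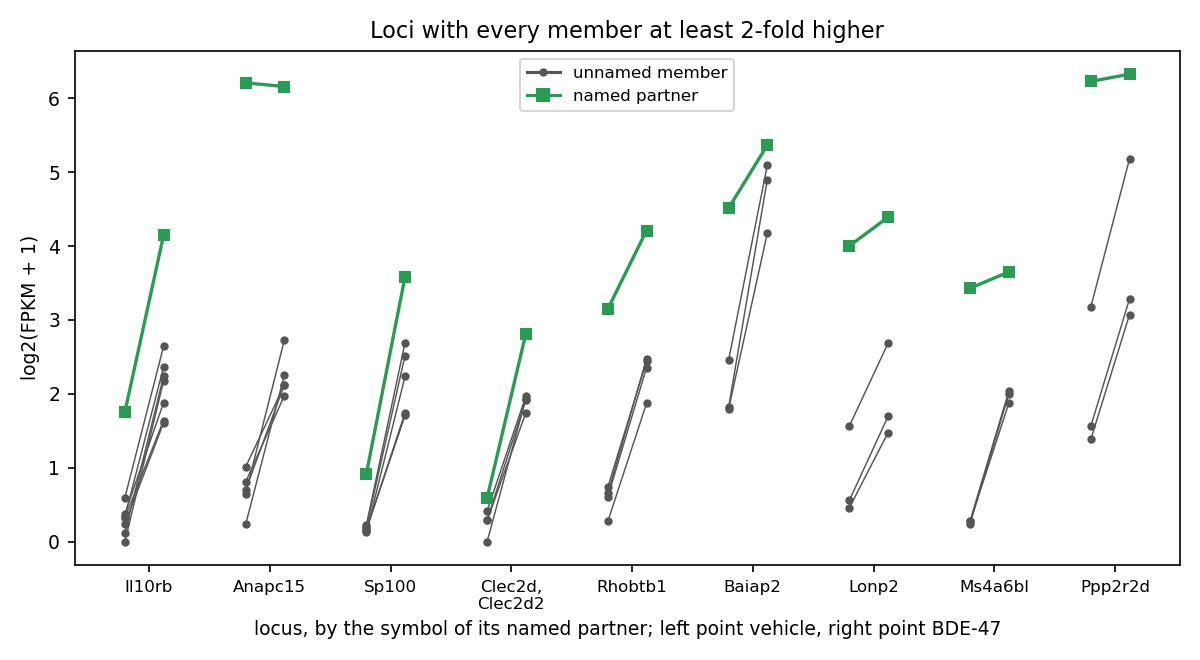
The 9 loci in which every member was at least 2-fold higher, with vehicle on the left and BDE-47 on the right of each pair, as log2(FPKM + 1). Grey lines are unnamed members and green lines the named partner; at Anapc15, Ppp2r2d, Ms4a6bl, Lonp2 and Baiap2 the partner stayed within 2-fold.

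Of the members, 16 were listed at 0 in vehicle and none in BDE-47, beside 265 and 18 of all 32602 rows at this level. By the level rule these members had to reach 2 FPKM in BDE-47, and the highest was at 17.3 FPKM. Of their partners, 9 were higher, among them Slfn2, an immune cell gene at 1.23 and 19.03 FPKM. On chromosome X, 16 of 39 members were higher (41.0%) and none was lower, at a median of 0.87; on the autosomes 15.1% were higher, with a median of 0.32. The X median stayed positive under the other scalings. It was lowest, at 0.46, with the shift of the table removed. At that setting 4 X members were higher and 4 lower, beside 6.19% and 12.4% of all members. In the unscaled columns, 38.2% of all 908 rows of chromosome X at this level were higher too, so the contrast with the autosomes was not particular to the members. Of the 39 X members, 6 came from the Mir505 locus alone. All 6 were under 1 FPKM in vehicle, at most 0.712 FPKM, and met the level rule through BDE-47.

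Micro RNA genes were the only named rows in 11 loci, with 35 members. A mature micro RNA carries no poly(A) tail, and these loci spanned 2.00 kb or more, so the rows are read as longer transcripts over the gene and not as the micro RNA. The mature forms of the gene whose member was most abundant and of those with the most members on chromosomes X and 2 are shown, with the seed (bases 2 to 8) in capitals, as RefSeq lists them for GRCr8. No seed is shared among them. Mir202 is known from gonads and Mir137 from neurons.
rno-miR-202-5p: uUCCUAUGcauauacuucu
rno-miR-202-3p: aGAGGUAUagcgcaugggaaa
rno-miR-505-5p: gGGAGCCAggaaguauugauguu
rno-miR-505-3p: gUCAACACuugcugguuucc
rno-miR-137-5p: aCGGGUAUucuuggguggauaa
rno-miR-137-3p: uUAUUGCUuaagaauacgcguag
The 35 members included 11 that were higher and none that was lower, beside 15.5% and 1.49% of all members and 22.5% and 2.82% of all rows. Of these 11, 9 were under 1 FPKM in vehicle and met the level rule through BDE-47. The median difference was 0.62 with the columns unscaled and 0.15 with the shift of the table removed. At that setting 2 were higher, beside 6.19% of all members. At Mir202, a 2.00 kb locus at chr1:219212871-219214872, the other-run member was at 5.66 FPKM in vehicle and 22.9 FPKM in BDE-47 and the named row at 10.2 and 41.6 FPKM, so both were about equally higher. The 6 members at Mir505 were all in the same run, at 0.212 to 0.712 FPKM in vehicle and 1.87 to 3.63 FPKM in BDE-47, so all met the level rule through BDE-47, beside a named row at 2.23 and 10.2 FPKM. The 10 members at Mir137 included 2 that were higher, beside a named row at 5.70 and 6.68 FPKM. The member at Mir760 went the other way from its gene, with 3.46 and 8.11 FPKM against 14.7 and 7.36 FPKM. At Mir138-1 the most abundant members were at 7.84 and 12.3 FPKM and at 2.97 and 4.82 FPKM, beside a gene at 3.43 and 2.23 FPKM. The member at Mir344b-1 had 3.605 and 6.23 FPKM and its gene 8.28 and 8.51 FPKM.

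Partners were also read by cell type and function, with lists chosen when earlier results of these data were known. For comparison, 15.5% of all members were higher and 1.49% lower, and of their 1278 partners 16.3% and 5.01%. Genes of late spermatids, the cells that build the sperm head and tail, were partners of 31 members in 15 loci. Of these members 2 were higher and 2 lower, and their median difference was -0.01. Of the 15 partners 6 were lower and none was higher, and the partner median was -0.76. The added 1 FPKM lessens the differences of low members more than those of abundant partners, so the 2 medians are not on equal terms. With the shift of the table removed, 10 members and 13 partners were lower, at medians of -0.52 and -1.54. At that setting 12.4% of all members were lower. So were the partners at 187 of 616 loci with same-run members and at 272 of 841 loci with other-run members. At Tcp11, a sperm flagellum gene, the member was at 57.3 and 26.4 FPKM and the gene at 867 and 372 FPKM. At Odf1, an outer dense fibre gene of the sperm tail, the member was at 21.4 and 17.1 FPKM and the gene at 4270 and 2419 FPKM. At Oaz3, an ornithine decarboxylase antizyme gene of spermatids, 2 members lay at 0.853 to 1.02 FPKM in vehicle and 1.73 to 2.03 FPKM in BDE-47, under a gene at 6252 and 2916 FPKM. In whole testis RNA fewer cells of a type and less RNA per cell cannot be told apart, and Prm1, the protamine gene of late spermatids, was itself at 43238 and 16271 FPKM; its part in these values was not tested.

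Ribosomal protein and translation genes were partners of 15 members in 13 loci, of which 2 members were higher and none was lower. The members' median was 0.44, beside 4 higher partners and a partner median of 0.84. With that shift removed the members' median was -0.12 and the partner median 0.05. At that setting 2 members were lower, and 1 partner was higher and 1 lower. The member at Rpl15 was at 15.8 and 46.2 FPKM and the gene at 67.6 and 122 FPKM. The member at the elongation factor gene Eef1d was at 32.9 and 25.6 FPKM and the gene at 338 and 199 FPKM. The meiosis list had 8 members in 4 loci, 2 of them higher, and the most abundant was that at Tdrd1, a gene of the piRNA pathway, at 48.5 and 47.8 FPKM. At Mael, another piRNA pathway gene, the member was at 6.50 and 14.8 FPKM, a difference of 1.08 that was 0.36 with the shift removed, and the gene at 820 and 760 FPKM. Somatic lists were thin. The 8 members at Sqle, the squalene epoxidase gene of sterol synthesis and the only locus of the Leydig list, were all in the other run and within 2-fold on the log2(FPKM + 1) scale, with a median of 0.42. A member of this locus, at 1.05 and 2.60 FPKM, passed 2-fold with smaller pseudocounts (1.23 and 1.30) and by the deposited ratio (1.31). The member at Csf1r, the receptor of macrophage growth factor, was at 7.57 and 7.31 FPKM while the gene was at 1.33 and 18.5 FPKM. The member at Tf, the transferrin gene of Sertoli cells, was at 1.18 and 1.56 FPKM beside a gene at 101 and 220 FPKM. The members at Acta2 and at the merged Eqtn,Tek row were within 2-fold. That merged row was at 88.0 and 133 FPKM, while a row of Tek alone was at 2.03 and 3.81 FPKM. How much of the merged row comes from Tek, the listed vessel gene, is therefore not known. No member had a partner from the spermatogonia, interferon or imprinted lists.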

How the data were processed

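Testis poly(A) RNA was sequenced from 5 libraries per group. Per the submitters' processing notes, TopHat2 and Cuffdiff 2.1.1 were used on rn5; how the libraries were combined is not given in the sources used here, nor are the annotation and the strand setting. The deposited table holds the authors' values, 1 per group and row as log2 FPKM, and their log2 ratio, which equals the difference of the columns within 0.01. A log2 value of -10 was read as 0. Depth is unknown. The table counts starts from 0, so 1 was added. Which libraries fed which column is not shown: libraries labelled BDE-47 carry C codes in their titles, and the direction follows the column names. The extraction text speaks of liver, the tissue label of testis.

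Members, lists and rules were chosen with earlier results of these data known. The planned limma test needs values per library, so no test was run. A pseudocount of 1 FPKM was added before log2. The partner is the named row of the locus with the highest mean. Members named in the text are the 8 most abundant, the 5 at each end of the differences, the 6 opposite pairs with the widest gap, the 5 most abundant at micro RNA partners and the 2 most abundant per list; others were named after their values were seen. The calls were tested on the real rows with BDE-47 set equal to vehicle and some members changed by known folds. The reading of runs was tested on a made chromosome. Python 3.11.15, pandas 2.3.3 and numpy 2.4.6 were used. Alternatives were other pseudocounts, the deposited ratio, other level filters, median-of-ratios and quantile scaling, 1 row per locus and other partners.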

Additional observations from a re-analysis of the deposited data

How the results depend on the processing

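The 2-fold rule on a log2(FPKM + 1) scale and the scaling of the columns set how many members were counted. With a pseudocount of 0.1, 807 members were higher and 96 lower, the median was 0.46, the median of same-run minus that of other-run members was 0.46 (0.31 as reported), and 224 pairs were both higher, 15 both lower and 30 opposite; with 0.01 these values were 859, 108, 0.49, 0.48, 233, 16 and 35, and with the deposited ratio 868, 110, 0.49, 0.48, 237, 17 and 36. A filter at a mean of 5 FPKM left 533 members, of which 75 were higher, with a median of 0.048, 14 pairs both higher, 4 both lower and 5 opposite, and 114 members above their partner; without a filter the runs differed by 0.083. Median-of-ratios scaling over all rows gave 174 higher and 348 lower, a median of -0.19, and 53, 164 and 42 pairs both higher, both lower and opposite. Quantile normalization gave 215 higher and 181 lower, a median of -0.081, and 72 pairs both higher and 56 both lower. Scaling over rows of at least 1 FPKM, chosen after seeing the data, gave 270 higher and 136 lower, a median of 0.052, and 85, 45 and 37 pairs. With 1 unnamed row per locus, 208 were higher, the median was 0.20, the runs differed by 0.51, and 70 pairs were both higher and 9 opposite. In loci with 1 named row, 85 pairs were both higher, 5 were opposite and 98 members exceeded their partner. Fewer members enter under the last 2 settings and under the higher filter by their construction; for the other settings the cause was not tested. The same-run median stayed above the other-run median under each alternative in which it was computed, although a shift of a whole column leaves this difference nearly fixed. Leaving out the locus with most members, or those with 10 or more, also chosen after seeing the data, moved no count by over 1.5 times. None of the 40 named members reversed a called difference under the other pseudocounts, the ratio and the 3 scalings, but calls changed. Median-of-ratios scaling over all rows ended the calls of the members at Mael (0.36), Rpl15 (0.73) and Mir760 (0.37) and made those at Cdipt, Hypm, Psca, Vom2r9, Odf1 and Eef1d at least 2-fold lower. Quantile normalization ended the calls at Mael (0.61) and Mir760 (0.55), scaling over rows of at least 1 FPKM ended the same pair of calls and made Cdipt, Hypm and Psca lower, and the other pseudocounts and the ratio made 1 member at Sqle higher. No paired analysis was possible because the columns hold 1 value per group, and leaving out a replicate was not run for the same reason. Depth is not given, so it cannot be said which low values rest on few fragments.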
